A study of Mus musculus with 8 samples.

Results

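The developmental pluripotency-associated (Dppa) genes examined here were Dppa2, Dppa3, Dppa4 and Dppa5a. They were taken by their symbols in the annotation of the array, which gave 4 genes and 5 probe sets (a probe set is the group of short probes that measures one transcript), among 18193 genes and 45037 probe sets. Where a gene had several probe sets, that of highest mean in the 8 lines stood for it. The probe sets were 1429654_at for Dppa2, 1424295_at for Dppa3, 1429597_at for Dppa4 and 1416552_at for Dppa5a. The second Dppa2 probe set, 1453223_s_at, was read separately.

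The study compared mouse embryonic stem cells (ESCs) with and without Zfp281, a zinc finger transcription factor that binds Nanog, and asked how its loss changes pluripotency gene expression. Each line was measured on 1 Affymetrix array. Lines 3, 3.2 and 3.3 were wild-type (n = 3), lines 5 and 3.1 were heterozygous (n = 2), and lines 7, 3.34 and 3.38 were null (n = 3) and carry the label Zfp281 deficient. The null allele has a floxed neomycin cassette, present or removed by Cre, in place of both exons. The lines were derived from blastocysts of heterozygous matings and received no treatment. All were kept with LIF on primary embryonic fibroblasts, so an array can also hold feeder RNA. By the study's text null line 7 and wild-type line 3 came from 1 litter and null line 3.38 and wild-type line 3.3 from another. Replicates are separate lines, and the small number of lines limits what can be resolved.

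Dppa2 and Dppa4 are paired nuclear proteins with a SAP domain, a DNA-binding fold. They sit together on chromatin, keep promoters of developmental genes from being methylated, and act upstream of Dux and the genes of the 2-cell embryo. Dppa3, also called Stella or PGC7, is a maternal and germ cell protein that limits Uhrf1, the cofactor of maintenance DNA methylation, and shields methylation in the zygote. In ESCs grown with serum it is a marker of the naive state that differs from cell to cell. Dppa5a, also called Esg1, is an RNA-binding protein with a KH domain that is abundant in ESCs.

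Zfp281 mRNA set the null lines apart, while its heterozygous and wild-type lines overlapped. It had log2 values of 6.72 to 7.93 in wild-type, 6.69 to 6.97 in heterozygous and 3.64 to 5.23 in null lines, of which 2 were still called present. Null minus wild-type ESCs gave a log2 fold change of −2.54 (adjusted p = 0.0467 from limma, described below). Heterozygous minus wild-type ESCs gave −0.35 (limma adjusted p = 0.997). Without null line 7 the null difference was −2.03 (limma adjusted p = 0.130). Of 10 ESC markers, 9 were called present on all 8 arrays, and Utf1 was absent from all. Between 28.4% and 35.3% of probe sets were called present, lowest in heterozygous line 3.1 and then in wild-type line 3.2. The 3′ minus 5′ difference of the controls for Gapdh and beta-actin, which grows with RNA degradation, averaged 2.68 to 3.71 (log2) in null lines. It was 4.23 to 4.86 in wild-type and 4.49 to 4.80 in heterozygous lines, so this measure moved with the null genotype. All 5 Dppa probe sets were called present in all 8 lines.

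Dppa5a and Dppa4 rose in Zfp281 null ESCs, and Dppa2 lay higher without passing the test. Dppa3 split the null lines and passed only in a fit blocked by litter, which was chosen after seeing the data. That fit leaves out null line 3.34, the only null line in which Dppa3 lay above the wild-type lines. The log2 fold change of Dppa3 was −1.41 there, and also on the same arrays without the block (limma adjusted p = 0.0594). Leaving out null line 3.34 alone gave −1.41 as well. Of the 4 genes, 2 passed an adjusted p under 0.05 in limma (linear models fitted to all 18193 genes, Benjamini-Hochberg adjustment), both higher, where 0.693% of all genes were called higher. All null lines lay above all wild-type lines for 3 of the 4 genes, where 11.1% of all genes were separated in that direction. The median log2 fold change of the 4 genes was 1.05, against −0.01 over all genes. In RNA from whole cultures, fewer cells expressing a gene and less of its RNA per cell cannot be told apart.

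**Figure D1:**
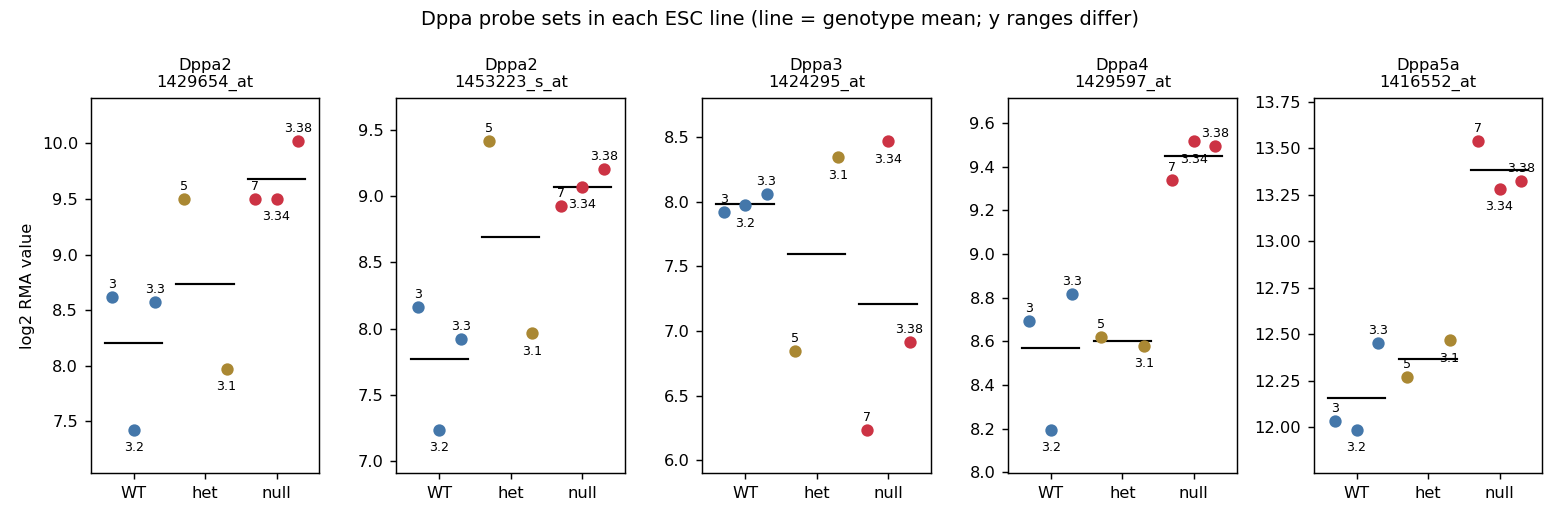
Log2 RMA value of each Dppa probe set (one panel each, with its own y range) in wild-type (WT), heterozygous (het) and null ESC lines. Each point is 1 line, labelled with its number, and the horizontal bar is the genotype mean. For Dppa4 and Dppa5a the null lines lie above every other line, while the Dppa3 null lines spread from 6.24 to 8.47.

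Dppa5a, the RNA-binding member, had log2 values of 12.04, 11.99 and 12.45 in wild-type lines 3, 3.2 and 3.3. It was at 12.27 and 12.47 in heterozygous lines 5 and 3.1, and at 13.54, 13.28 and 13.33 in null lines 7, 3.34 and 3.38. The null lines lay above all other lines, and the heterozygous lines overlapped the wild-type lines. The means were 12.16 ± 0.25 (SD, n = 3 lines) for wild-type lines and 13.38 ± 0.14 (SD, n = 3) in null ESCs. The log2 fold change was 1.23 (standard error, SE, 0.15, limma adjusted p = 0.0301), a 2.34-fold rise with a 95% confidence interval of 1.84 to 2.97. On the linear signal scale of the Affymetrix software, the wild-type lines had 3172 to 4785 and the null lines 6859 to 7842. Heterozygous lines 5 and 3.1 had 4647 and 6001. The adjusted p from limma was 0.120 without null line 7, 0.0881 and 0.0797 with wild-type line 3 or 3.2 left out, and at most 0.0485 without any other single line. With a covariate for the 3′ minus 5′ difference the log2 fold change was 0.80 (limma adjusted p = 1.00). Dppa5b and Dppa5c are annotated as pseudogenes of the same name, and whether their transcripts reach the Dppa5a probe set was not tested.

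Dppa4 had log2 values of 8.69, 8.20 and 8.82 in wild-type lines 3, 3.2 and 3.3. It was at 8.62 and 8.58 in heterozygous lines 5 and 3.1, and at 9.34, 9.52 and 9.49 in null lines 7, 3.34 and 3.38. In these log2 values the heterozygous lines were inside the wild-type range and the null lines above it. On the signal scale heterozygous lines 5 and 3.1, at 454.2 and 441.3, were above the wild-type lines (231.7 to 389.7). Line 5 was also above null line 7 there, where null lines had 443.1 to 635.4. The means were 8.57 ± 0.33 (SD, n = 3) for wild-type lines and 9.45 ± 0.10 (SD, n = 3) in null ESCs. The log2 fold change was 0.88 (SE 0.16, limma adjusted p = 0.0483), or 1.84-fold with an interval of 1.42 to 2.38. This call lay close to the threshold and was held by only 1 of the 8 fits that left out a line, that without wild-type line 3.3. In the others the adjusted p from limma was 0.0640 to 0.171, highest without null line 7, and the log2 fold change was at least 0.69. Over all probe sets it was 0.0564, where 0.52% of probe sets passed.

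Dppa2, the partner of Dppa4, had log2 values of 8.62, 7.43 and 8.58 in wild-type lines 3, 3.2 and 3.3. Heterozygous line 5 was at 9.50 and line 3.1 at 7.97, and null lines 7, 3.34 and 3.38 were at 9.50, 9.50 and 10.02. The null lines exceeded the wild-type lines, and heterozygous line 5 stood at the level of the null lines. Null minus wild-type ESCs gave a log2 fold change of 1.47, larger than for the other members, but its standard error was 0.43 and its limma adjusted p 0.135. The 95% confidence interval of the fold was 1.39 to 5.50. Without wild-type line 3.2, the lowest one, the log2 fold change was 1.08 (limma adjusted p = 0.320), and the range over the fits leaving out 1 line was 1.08 to 1.67.

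The second Dppa2 probe set gave the same order of genotypes and the same high heterozygous line. It was at 8.16, 7.24 and 7.92 in wild-type lines 3, 3.2 and 3.3, while null lines 7, 3.34 and 3.38 were at 8.93, 9.07 and 9.21. Heterozygous line 5, at 9.41, was above every null line on it, and line 3.1 was at 7.97. Null minus wild-type ESCs gave a log2 fold change of 1.29 (SE 0.36, limma adjusted p = 0.147 over all probe sets).

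Dppa3 was the member whose null lines did not move together. Wild-type lines 3, 3.2 and 3.3 had log2 values of 7.92, 7.97 and 8.06, an SD of 0.07. Null lines 7 and 3.38 were at 6.24 and 6.92, below every wild-type line, while null line 3.34 was at 8.47, above them. The heterozygous lines were split in the same manner, with line 5 at 6.85 and line 3.1 at 8.34. The signal values showed the same split, 88.4 and 93.1 in null lines 7 and 3.38 and 254.3 in null line 3.34, against 161.3 to 208.3 in wild-type lines. Null minus wild-type ESCs gave a log2 fold change of −0.78 (SE 0.55, limma adjusted p = 0.582), with a 95% confidence interval of the fold from 0.243 to 1.40. It was −0.29 without null line 7 and −1.41 without null line 3.34 (limma adjusted p = 0.924 and 0.151). With a covariate for the 3′ minus 5′ difference it turned to 1.09 (limma adjusted p = 1.00).

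Within the litter pairs, which leave out null line 3.34, the members kept to 1 direction each. Any pairing of these lines would give this, since the null and wild-type lines left did not overlap for any member. Dppa3 was lower in the null line of both pairs, by a log2 difference of −1.68 (7 against 3) and −1.14 (3.38 against 3.3). Dppa2 was higher by 0.89 and 1.44, Dppa4 by 0.64 and 0.68, and Dppa5a by at least 0.87 in both. With the litter as a block on these 4 arrays, Dppa3 passed, at −1.41 (SE 0.18, limma adjusted p = 0.0464), where 178 of 18193 genes passed. On the same arrays without the block it did not (limma adjusted p = 0.0594). Dppa2, Dppa4 and Dppa5a missed the threshold in this blocked fit (log2 fold changes 1.16, 0.66 and 1.19, limma adjusted p = 0.0625, 0.0974 and 0.0642), which rests on 1 residual degree of freedom.

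The spread between lines of a genotype set the members apart as well. The residual SD, the spread that the genotype means leave, was 0.86 for Dppa3 and 0.67 for Dppa2 on the log2 scale. Of the 5296 genes called present on all 8 arrays, 99.2% and 97.1% had a lower one. Dppa4 and Dppa5a, at 0.22 and 0.19, were below the median of 0.26 of these genes.

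Ratios within a line show whether the members changed unequally, whatever the scaling of an array. The log2 ratio of Dppa3 to Dppa5a was −4.17 ± 0.19 (SD, n = 3) for wild-type lines and −6.18 ± 1.26 (SD, n = 3) in null lines, with no overlap. The ratio of Dppa3 to Dppa4 was lower in every null line than in every wild-type line as well (difference −1.66), and that of Dppa2 to Dppa3 was higher by 2.25. In each of these, as in the ratio of Dppa2 to Dppa4, the exact two-sided permutation p was 0.1, the smallest that 3 lines against 3 allow, and 0.15 after adjustment over the 6 pairs of members. The ratios of Dppa2 and of Dppa4 to Dppa5a overlapped between the genotypes (exact permutation p = 0.6 and 0.2, adjusted 0.6 and 0.24).

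In heterozygous ESCs none of the 4 genes passed limma, in which no gene at all passed and 701 of 18193 (3.85%) were under 0.05 before adjustment. On the probe set chosen for each gene, the unadjusted p from limma was at least 0.239, and their heterozygous and wild-type lines overlapped, where 17.3% of all genes were separated in either direction. Dppa4 had a log2 fold change of 0.03, with a 95% confidence interval of the fold from 0.767 to 1.36, and Dppa5a had 0.21, with 0.888 to 1.51. Dppa2 had 0.53, which rested on line 5 and was −0.23 without it. Its second probe set had 0.92 (unadjusted p = 0.0507 from limma, 0.989 adjusted over all probe sets). Dppa3 had −0.39, which rested on the same line and was 0.36 without it.

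Against the heterozygous lines, the log2 values of Dppa5a and Dppa4 were again higher in each null line, though the Dppa4 signals overlapped. A separation of log2 values in this direction was found for 13.3% of all genes. No gene passed limma in this comparison, where 2512 genes (13.8%) were under 0.05 before adjustment. The log2 fold changes of Dppa5a and Dppa4 were 1.01 and 0.85 (SEs 0.17 and 0.18, limma adjusted p = 0.0610 and 0.0871). Leaving out wild-type line 3.2, both passed (limma adjusted p = 0.0339 and 0.0254), and Dppa5a also did without wild-type line 3.3 (0.0345). Dppa2 and Dppa3 overlapped, with log2 fold changes of 0.94 and −0.39 (limma adjusted p = 0.454 and 0.863). The value of Dppa2 was 0.17 without heterozygous line 3.1 and 1.70 without line 5, and 0.38 on its second probe set. These comparisons share lines with those above and are not independent of them.

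**Figure D2:**
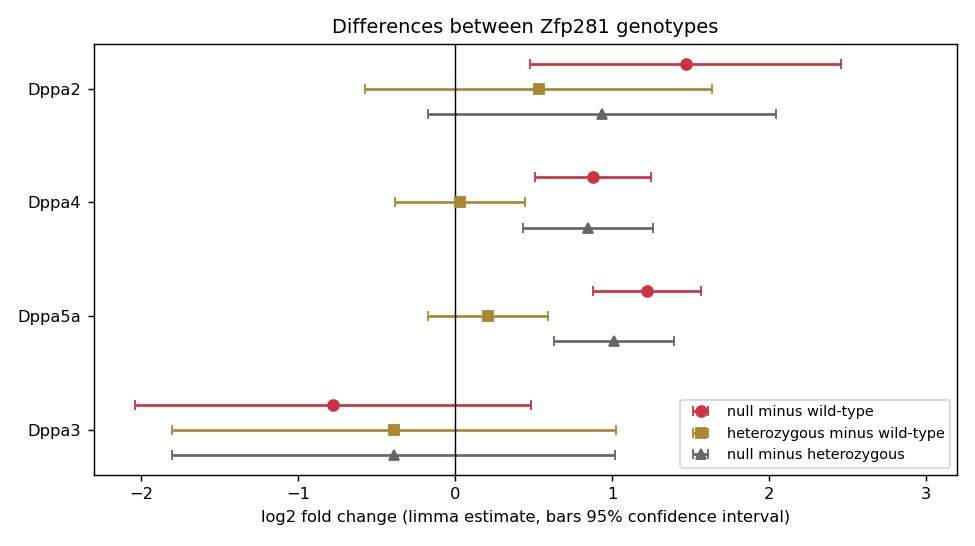
Log2 fold change of each Dppa gene between Zfp281 genotypes, as estimated by limma, with 95% confidence intervals as bars. Null minus wild-type is drawn as circles, heterozygous minus wild-type as squares and null minus heterozygous as triangles. The intervals of Dppa4 and Dppa5a lie above 0 in both comparisons of null lines, and every interval of Dppa3 spans 0.

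The Dppa genes lie among other genes of the germline and the early embryo. By the gene table, Dppa4 and Dppa2 are adjacent, with the germline gene Morc1 beyond Dppa2. Dppa3 lies next to Gdf3, a TGF-beta family ligand, and a few annotated genes away from Nanog, and Dppa5a lies next to Ooep, another KH-domain gene. Of the 3 annotated genes on each side, apart from members, 10 different ones were measured, and Gdf3 alone of them passed limma between null and wild-type ESCs, where 1.13% of all genes did.

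Gdf3 had log2 values of 5.91, 5.38 and 5.98 in wild-type lines 3, 3.2 and 3.3, while null lines 7, 3.34 and 3.38 were at 6.97, 6.84 and 6.94. Heterozygous lines 5 and 3.1, at 6.25 and 6.18, lay between them. From wild-type to null ESCs Gdf3 rose by 1.16 on the log2 scale (SE 0.16, limma adjusted p = 0.0330). As for Dppa5a, the call was lost without null line 7 (limma adjusted p = 0.135), wild-type line 3 (0.0881) or wild-type line 3.2 (0.0734). Its null lines lay close together, where those of its neighbour Dppa3 were split. Nanog, added to this comparison after its values were seen, was at 8.49 to 9.28 in wild-type and 9.26 to 9.73 in null lines (limma adjusted p = 0.296).

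Ooep, a component of the oocyte's subcortical complex, was at 8.73, 8.52 and 9.36 in wild-type lines 3, 3.2 and 3.3, while null lines 7, 3.34 and 3.38 were at 9.99, 10.10 and 10.62. The genotypes did not overlap, and its log2 fold change of 1.37 missed the threshold (SE 0.30, limma adjusted p = 0.0707). Like Dppa2, it was near the null level in heterozygous line 5, at 10.13. Morc1, a repressor of transposons in male germ cells, was at 7.09, 5.62 and 8.17 in wild-type lines 3, 3.2 and 3.3, while null lines 7, 3.34 and 3.38 were at 8.93, 8.41 and 8.89 (limma adjusted p = 0.178). Wild-type line 3.2 was its lowest line, as it was for Dppa2 and Dppa4, and also for Dppa5a, Gdf3 and Ooep elsewhere. Ddx43 on the other side of Ooep, and Apobec1 beside Gdf3, had limma adjusted p values of 0.508 and 0.862. The other 5 measured neighbours, Gsta2, Omt2a, Omt2b, Gm5485 and 6430553K19Rik, were called present on no array.

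**Figure D3:**
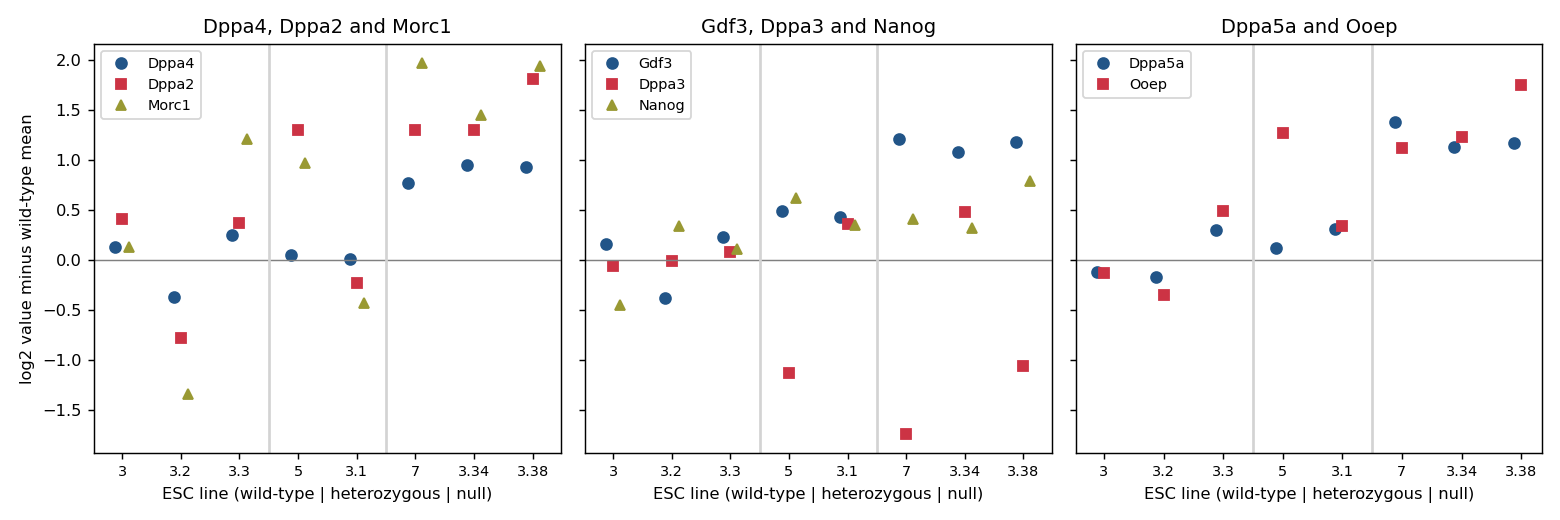
Log2 value of each gene minus its mean over the 3 wild-type lines, for the 8 ESC lines named on the x axis, with vertical lines between the genotypes. Panels hold Dppa4 and Dppa2 with Morc1, Dppa3 with Gdf3 and Nanog, and Dppa5a with Ooep. Gdf3 is above its wild-type mean in all null lines, while Dppa3 is below its own in null lines 7 and 3.38 and heterozygous line 5.

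Of 7 measured genes of the KH-domain family and the oocyte complex, none passed limma between null and wild-type ESCs. Only Ooep and Khdc3 were detected, Khdc3, another KH-domain gene, on 6 arrays, with a log2 fold change of 0.75 (limma adjusted p = 0.345). Khdc1a, Khdc1b, Nlrp5, Tle6 and Padi6 were called present on no array, and the list median of 0.04 is the value of one of these.

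Genes that depend on Dppa2 and Dppa4 in other work showed no change that passed the test. Of 28 listed 2-cell-like genes 10 were measured, and only 3 of them were called present on at least 4 arrays. None rose or fell, and their median null minus wild-type log2 fold change was 0.08, or 0.12 without the 3 called present on no array. Usp17la, a deubiquitinase of the 2-cell stage, was at 3.56 ± 0.10 (SD, n = 3) for wild-type lines and 4.53 ± 0.27 (SD, n = 3) in null lines and reached 5.50 in 1 heterozygous line (null against wild-type, limma adjusted p = 0.184). Tcstv1, another gene of that stage, had 0.16 (limma adjusted p = 0.526) and was called present in no wild-type or null line. Duxf3, the Dux gene itself, named after its values were seen, was called present on 2 arrays. Of 13 germline and developmental genes none passed either, with a median of 0.07, or 0.24 without 3 such genes. Syce1, a protein of the meiotic synaptonemal complex, was at 4.01, 3.78 and 3.70 in wild-type lines 3, 3.2 and 3.3, while null lines 7, 3.34 and 3.38 were at 4.99, 4.24 and 5.76 (limma adjusted p = 0.113). Ddx4, a germ cell RNA helicase, had a log2 fold change of −0.95 (limma adjusted p = 0.141).

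Dppa3 acts on DNA methylation. Of 13 measured DNA methylation factors, Zfp57 rose, none fell and 12 did not pass, with a median log2 fold change of 0.20, or 0.32 without 1 undetected gene. Zfp57, which keeps methylation at imprinted regions, rose from 6.03 ± 0.33 (SD, n = 3) to 7.52 ± 0.14 (SD, n = 3), or by 1.49 on the log2 scale (SE 0.24, limma adjusted p = 0.0388). It passed in only 2 of the 8 fits that left out a line, those without a heterozygous line, which are the same fit for this comparison. Its limma adjusted p reached 0.138 without null line 7. Ehmt2, a histone methyltransferase, had a log2 fold change of 2.00 and a limma adjusted p of 0.0528, and was called present in 1 wild-type and all 3 null lines. Uhrf1, the target of Dppa3, chosen here after its values were seen, had 0.45 (limma adjusted p = 0.538). Of 16 imprinted genes none passed and 12 had a lower mean in null ESCs, with a median of −0.27 (−0.33 without 2 undetected genes). Plagl1, an imprinted zinc finger gene, had −2.03 and Meg3, an imprinted noncoding RNA, had −1.23 (limma adjusted p = 0.110 and 0.219).

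Of 9 measured genes of primordial germ cells, where Dppa3 is also a marker, none passed, and the median log2 fold change was 0.02, or 0.13 without 1 undetected gene. Prdm1 and Tfap2c, factors of germ cell specification, had −0.53 and −0.94 (limma adjusted p = 0.143 and 0.152).

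Naive ESC genes had a median log2 fold change of 0.67 between null and wild-type ESCs, and 13 of 23 were higher in every null line than in every wild-type line, where 11.1% of all genes were. Gdf3 and Nr0b1 rose, none fell and 21 did not pass, where 0.693% of all genes were called higher. Heterozygous minus wild-type ESCs gave a median of 0.42, with 21 of 23 means higher, and null minus heterozygous ESCs 0.25. The heterozygous lines lay above all wild-type lines for 10 of 23, among them Gdf3 and Nr0b1, and below all of them for 0. Of all genes, 17.3% were separated in either direction. Nr0b1, a nuclear receptor of the pluripotency network, had a log2 fold change of 1.70 between null and wild-type ESCs (SE 0.25, limma adjusted p = 0.0370). The call was lost without null line 7 (0.143), null line 3.34 (0.0559), wild-type line 3 (0.100) or wild-type line 3.2 (0.100). Pou5f1, which encodes Oct4, had 1.29 (limma adjusted p = 0.0715). Of 13 formative and primed epiblast genes, Pou3f1 fell, none rose and 12 did not pass, with a median of −0.40, or −0.60 without 3 undetected genes. Pou3f1, a POU factor of the primed state, had −1.37 (SE 0.25, limma adjusted p = 0.0473), which passed in 1 of the 8 fits that left out a line, that without null line 3.34. Zic2 had −0.62 (limma adjusted p = 0.0820). These lists were written with earlier results of the arrays known.

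Levels of markers of other cells also differed between null and wild-type lines. For 16 of 19 markers of feeder fibroblasts the wild-type mean exceeded the null mean, with a median log2 fold change of −0.46, and none passed limma (smallest adjusted p = 0.166, for Col5a1, a collagen, followed by 0.178 for the matrix protein Sparc). Their levels summed on the linear scale were 4634 to 5155 in null, 5618 to 7928 in wild-type and 6225 to 7393 in heterozygous lines, and Pdgfrb was absent from all arrays. All 11 primitive endoderm markers, of which Pdgfra is also on the feeder list, had a lower mean in null ESCs. Among them Lamb1, a laminin, fell (log2 fold change −1.25, limma adjusted p = 0.0384), while Col4a2 had −1.47 (limma adjusted p = 0.113). By quantitative PCR the study reported Gata4 and Gata6 derepressed in heterozygous and null ESCs, and Sox17 in null ESCs. These genes are on the list with lower array means in both genotypes, and why the directions differ was not tested. The Lamb1 call held in 3 of the 8 fits that left out a line, those without null line 3.34 or a heterozygous line. The endoderm markers summed to 569 to 873 in null, 667 to 908 in heterozygous and 864 to 2483 in wild-type lines, and Foxa2 was absent. Their median log2 fold change was −0.47 for heterozygous against wild-type ESCs and 0.002 for null against heterozygous ESCs. The heterozygous lines thus lay with the null lines for this list. The 5 germ cell markers measured summed to 278 to 396 in null and 414 to 530 in wild-type lines. The 10 ESC markers summed to 8481 to 8661 in null, 5094 to 6341 in wild-type and 5887 to 7477 in heterozygous lines. The part of these shifts, and of the 3′ minus 5′ difference, in the values of the Dppa genes was not tested.

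**Figure D4:**
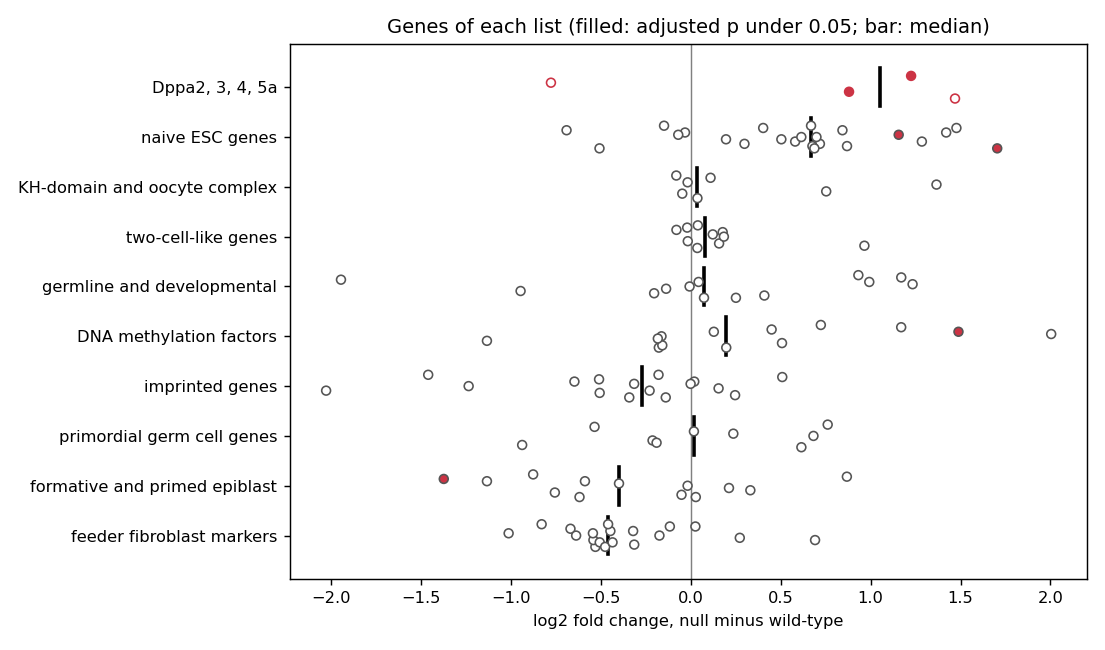
Null minus wild-type log2 fold change of each measured gene in 10 lists, 1 point for each gene, filled where the adjusted p from limma is under 0.05, with the list median, undetected genes included, as a bar. The Dppa genes and the naive ESC genes have medians of 1.05 and 0.67, and those of the other lists lie between −0.46 and 0.20.

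The genes whose pattern over the 8 lines was most like that of each member were named by Pearson correlation among 7585 genes called present on at least 4 arrays. These values are a description over 8 lines that fall into genotypes and share the arrays. Dppa2 was followed most closely by Pcgf6, a subunit of a Polycomb complex, Adpgk and Fancl (r = 0.982, 0.978 and 0.974). With the mean of each genotype removed the values were 0.984, 0.948 and 0.960, which is not separate support, since the genes were chosen over the same lines. Dppa3 was followed by Macroh2a1, a histone H2A variant, Lonrf1 and Zfp661 (r = 0.962, 0.947 and 0.944). Macroh2a1 was at 9.39 and 9.97 in null lines 7 and 3.38 and at 10.63 in null line 3.34, the same split as Dppa3. For Dppa4 these genes were Rnf121, Rrp1b and Immt (r = 0.981, 0.980 and 0.979), and for Dppa5a Dhx16, Rnf7 and Dap3 (r = 0.988, 0.987 and 0.987). Their log2 fold changes between null and wild-type ESCs follow from this choice and are not given as results.

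Under other settings the directions of Dppa2, Dppa4 and Dppa5a between null and wild-type ESCs did not change, and the calls of Dppa4 and Dppa5a did. For every gene, leaving out either heterozygous line gave the same fit here as using only the null and wild-type arrays. The alternatives counted next are thus not all distinct, and this fit, in which Dppa5a passed, is counted each time. Dppa5a passed in 11 of the 19 alternatives and Dppa4 in 2. Dppa3 passed in 1, the fit blocked by litter, which leaves out null line 3.34.

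**Figure D5:**
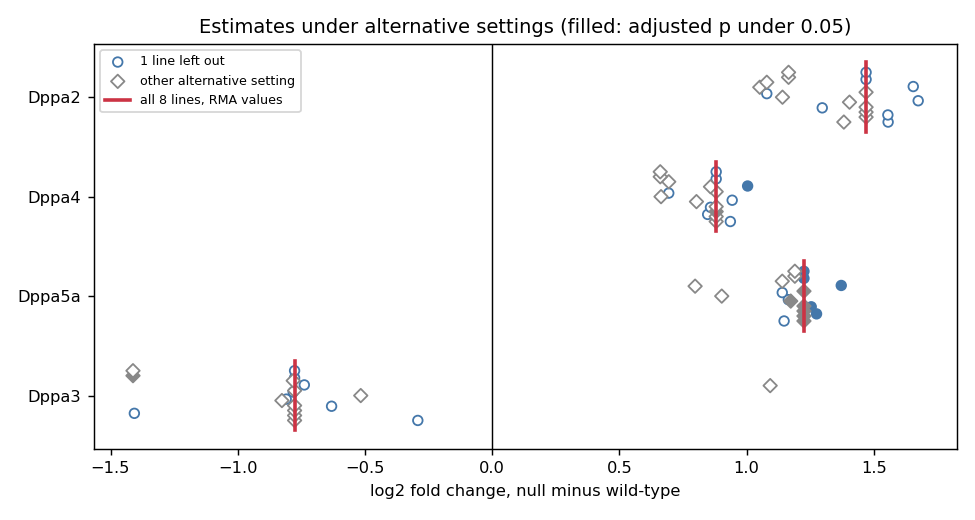
Null minus wild-type log2 fold change of each Dppa gene under each alternative setting. Circles are fits with 1 line left out, diamonds other settings, filled symbols have an adjusted p under 0.05 from limma, and the vertical bar is the value from all 8 lines. Dppa2, Dppa4 and Dppa5a stay above 0, and Dppa3 lies at 1.09 in the fit with the 3′ minus 5′ covariate and below 0 in every other, with 1 filled symbol, the fit blocked by litter.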

How the data were processed

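Affymetrix mouse genome arrays were used, 1 for each of 8 ESC lines. RMA was run by the authors over all arrays, and its log2 values were deposited. RMA and limma are named in the submitters' processing notes, without versions. The deposited tables of each array hold linear signal values, whose scaling the sources used here do not give, and detection calls with detection p-values from the Affymetrix software. Each of the 8 log2 columns matched the signal of its own array best. Controls made up 64 of 45101 probe sets and were not tested, and the platform annotation named 1 gene for 34945, several for 932 and none for 9160. Of those with 1 gene, 34741 were matched by Entrez identifier and no symbol was updated. The gene table (RefSeq, GRCm38.p6) was used for names and gene order only.

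Limma 3.58.1 (lmFit and eBayes, R 4.3.3, statmod 1.5.0) took all 8 arrays, with 1 mean per genotype, and the code was tested on simulated data. Python 3.11.15, numpy 2.4.6, pandas 2.3.3, scipy 1.17.1 and matplotlib 3.10.9 were also used. Alternatives were other probe set summaries, all probe sets, detected genes, the arrays of both genotypes, quantile normalization, log2(signal + 16), eBayes with a trend, a covariate (3′ minus 5′ difference) and leaving out each line. The omission of both arrays with the lowest present share, and the fits of the 4 arrays of the litter pairs with and without the litter as a block, were chosen after seeing the data. The pairing comes from the study's text, which names those lines as pairs of the same litters. Deviations from the genotype means correlated at 0.0897 and 0.00844 within the pairs and at −0.142 to 0.0996 between other null and wild-type lines, over 7586 genes called present on at least 4 arrays. In the alternative with detected genes, detected means a present call in every line of at least 1 genotype. An undetected gene of a list is one called present on no array. The members, lists and tests were chosen with earlier results of these data known. Named genes were the members, genes of each list at an adjusted p under 0.05 with the 2 smallest for null against wild-type ESCs, neighbours, the 3 most alike genes and exceptions stated.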

Additional observations from a re-analysis of the deposited data

How the results depend on the processing

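Dppa2 passed limma in no alternative of any comparison, and Dppa2, Dppa4 and Dppa5a kept their directions in every alternative between null and wild-type ESCs. The cause of a lost call was not tested. Between null and wild-type ESCs, Dppa4 lost its call at an adjusted p under 0.05 in several settings, given here with its log2 fold changes. They were averaged probe sets (0.88, adjusted p = 0.0501 from limma), all probe sets (0.88), only the arrays of both genotypes (0.88) and quantile normalization (0.80). Further ones were signal values (0.66), eBayes with a trend (0.88), the 3′ minus 5′ covariate (0.86) and the omission of both arrays of lowest present share (0.69). Dppa5a lost its call with signal values (0.90), the covariate (0.80) and without those arrays (1.14). Leaving out 1 line gave 0.69 to 1.00 for Dppa4 and 1.14 to 1.37 for Dppa5a. Dppa3 reversed only with the covariate, at 1.09, and otherwise lay at −1.41 to −0.29 with 1 line left out. Of the variance of the covariate, 79.1% lay between genotypes.

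Between heterozygous and wild-type ESCs, Dppa2 reversed to −0.23 and Dppa3 to 0.36 without heterozygous line 5 (ranges with 1 line left out −0.23 to 1.30 and −1.14 to 0.36). Dppa4 reversed to −0.15 without wild-type line 3.2 (range −0.15 to 0.16) and to −0.13 without both arrays of lowest present share. Between null and heterozygous ESCs, Dppa3 reversed to 1.52 with the covariate, to 0.36 without both arrays, and without null line 7 (0.09) or heterozygous line 3.1 (0.36), with a range of −1.14 to 0.36. Dppa4 passed without wild-type line 3.2 (range 0.81 to 0.90), and Dppa5a without wild-type lines 3.2 or 3.3 (range 0.91 to 1.11) and with only detected genes tested (1.01).

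The genes called at an adjusted p under 0.05 between null and wild-type ESCs, 206 in all, became 442 among detected genes, 10 with signal values, 0 with the covariate (462 at an unadjusted p under 0.05), 5 without both arrays and 2 to 208 with 1 line left out. Fewest were called without wild-type line 3 (2), null line 7 (3) and wild-type line 3.2 (4). Past 2-fold, 450 became 248 with averaged probe sets and 847 over probe sets (330 to 617 with 1 line left out). For heterozygous ESCs, 0 became 1 over probe sets and 0 to 2 with 1 line left out, and 61 past 2-fold became 32 with averaged probe sets, 100 over probe sets, 248 without both arrays and 58 to 234 with 1 line left out. Between null and heterozygous ESCs, 0 became 20 with averaged probe sets, 5 over probe sets, 166 among detected genes, 96 in the fit of both genotypes, 43 with the trend and 0 to 346 with 1 line left out. The 441 past 2-fold became 252 with averaged probe sets, 911 over probe sets and 363 to 759 with 1 line left out.

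In the paired analysis of the 4 arrays of the litter pairs, with the litter as a replicate block, Dppa3 passed at −1.41, and Dppa4 at 0.66 and Dppa5a at 1.19 did not, as on the same arrays without the block. Without the block Dppa3 did not pass. The block gave 178 genes at an adjusted p under 0.05 (69 higher and 109 lower, against 126 and 80 over all arrays), and no block 198. A fit without a heterozygous line rests on the other, assumed to vary like the other genotypes. Present calls, not read depth, limit these values, and genes absent from all arrays stay in the list counts and medians, where their folds describe background.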
